A study of Mus musculus with 20 samples.

Results

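Replication histone genes are the clustered genes for the linker histone H1 and the core histones H2A, H2B, H3 and H4. They were taken as every gene whose name starts with Hist1h, Hist2h, Hist3h or Hist4h and that reached 10 normalized reads in at least 3 of 20 libraries. Among 53714 genes in all, 70 carried such a name and 59 passed, namely 5 of 6 H1, 16 of 20 H2A, 16 of 19 H2B, 10 of 12 H3 and 12 of 13 H4 genes. On the GRCm38 build 48 of the 59 lie on chromosome 13, 7 on chromosome 3, 3 on chromosome 11 and 1 on chromosome 6. The third-highest library value, on which the filter acts, was 19.6 for Hist1h2ad and 19.7 for Hist2h2aa2, just inside it, and 4.57 for Hist1h1t and 2.74 for Hist2h3c2, just outside. The 11 genes left out never exceeded 18.9 normalized reads, and 2 of them were at 0 in every library.

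The study sequenced total RNA of sorted CD4+ iNKT1 cells, T cells that see lipid antigen on CD1d and make interferon-gamma, from organs of female mice 8 to 12 weeks old. All groups were gated as CD1d tetramer+ CD3+ B220- DAPI- CD4+ cells. Cells of spleen, liver and blood were further gated as CXCR3+ CD138-, whereas thymus cells were gated on CD122 with no CD138 gate, so that the gate and the organ cannot be told apart there. The 15 C57/BL6N (BL6) libraries are 3 each of spleen, liver_C, liver_H, blood and thymus, and the 5 BALB/c libraries are 2 of liver_C and 3 of liver_H. Livers were split, so that liver_H is the part digested for 30 min at 37 °C with collagenase D and DNase I, while the rest (liver_C), like spleen, was meshed in the cold. The methods also describe a Percoll gradient for liver cells and none for spleen or thymus, so this step goes with the organ. Its part in the results was not tested. Which libraries came from the same livers was not given. Spleen and liver libraries each came from a pool of 4 to 6 mice in independent experiments. A like description of the organs together may cover blood and thymus but does not name them.

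Histone proteins package DNA, and a cell must double its supply each time it copies its genome. Replication histone genes are therefore transcribed mainly in S phase. Their mRNAs have no introns and mostly end not in a poly(A) tail but in a short stem-loop, which the stem-loop binding protein SLBP holds and which U7 snRNA and its partners help to cut. When DNA synthesis stops these mRNAs are degraded quickly, and some of the same genes also give polyadenylated transcripts that run past the loop in cells that do not divide. The libraries were made from total RNA without selection for poly(A) tails, so both forms can be read.

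A stem-loop sequence was found in the GENCODE M21 transcripts of 39 of the 59 members. It is shown here because it is the feature that marks this RNA class and because its letters set the H4 genes apart from the other types. Capitals mark the 16 bases of stem and loop.
Hist1h4h: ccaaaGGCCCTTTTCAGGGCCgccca
Hist1h4d: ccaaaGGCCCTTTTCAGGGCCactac
Hist2h4: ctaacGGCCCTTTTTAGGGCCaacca
Hist4h4: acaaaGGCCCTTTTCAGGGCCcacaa
Hist1h1c: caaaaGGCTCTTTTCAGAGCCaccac
Hist2h2ac: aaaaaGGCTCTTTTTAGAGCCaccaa
Hist1h3f: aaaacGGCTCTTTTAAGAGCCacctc
Hist3h2a: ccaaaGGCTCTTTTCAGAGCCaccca
Among the 11 H4 genes with a loop, 6 had the form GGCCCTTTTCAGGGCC, 2 had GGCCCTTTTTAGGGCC, 2 had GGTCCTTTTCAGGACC and 1 had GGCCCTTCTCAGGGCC. Outside H4, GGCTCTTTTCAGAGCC was found in 3 H1, 7 H2A, 8 H2B and 3 H3 genes, and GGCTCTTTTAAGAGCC in 2 H2B and 3 H3 genes. For 16 members the annotated transcript ran over 200 bases past the loop, among them Hist3h2a with 1643 bases, Hist4h4 with 2445 and Hist1h1c with 840. No loop was found in 20 members, some with short annotated transcripts, such as Hist1h4k with 312 bases, Hist1h2bn with 381 and Hist1h2ak with 393. A loop past the end of the annotated transcript could not be found, so these members may still have one.

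Many members are near copies of each other. Cut into windows of 75 bases, the read length, 24 members had over 50% of their windows in common with another annotated gene, 8 had under 10%, and the median was 38.5%. How the counting treated reads that match several copies was not tested, so values of single members with a high share are uncertain, and Hist2h2aa2, Hist2h2bb and Hist2h3b had no window of their own. Windows shared with overlapping genes are part of these shares, and Hist1h2be and Hist1h1e share 496 bases on the same strand. Hist2h2bb shared windows only with Gm20628 and Gm42743, which overlap it, so its share does not mark a copy elsewhere. Hist1h1a and Hist2h4 had 0% shared windows, Hist1h4d 3.67% and Hist1h1c 6.66%, while Hist1h4h had 42.4%. Among the genes left out by the filter, Hist2h2aa1 and Hist2h3c1 had 100%. Hist1h2bq, Hist1h2ao, Hist1h2ap, Hist1h4m and Hist1h2br had 87.6 to 96.1%, and the rest 0 to 62.6%. Values near 0 of left-out genes with a high share are uncertain in the same way.

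Libraries held 9336861 to 22879834 reads in genes (median 12457757.5). They came from 10700 to 209900 sorted cells, with the lowest number in both N13 blood libraries. In BALB/c every liver_H library came from fewer cells than every liver_C library. The part of the cell number in the histone results was not tested. Replicate libraries differed far beyond counting noise in all 19 pairs, with a chi-square per degree of freedom of 11.8 to 213. Genes that define the sorted cells were read in all libraries, for example Zbtb16 (PLZF) at 1006 to 2647 and Tbx21 (T-bet) at 1600.0 to 3463 normalized reads, while Klrb1c (NK1.1) ranged from 205 to 3314 and was lower in BALB/c than in BL6 (log2 fold change -3.66 in liver_C and -3.49 in liver_H, limma adjusted p = 3.14e-08 and 7.41e-09). Of 7 such iNKT1 genes 3 were lower in thymus than in spleen, 4 were lower in thymus than in blood, 1 was higher in blood than in spleen and 3 were lower in spleen than in liver_H. Their part in the histone results was not tested. The number in a library's name falls in the range N09 (7 libraries), N12 (5) or N13 (8), and no range holds every group. Marker lists of other cells are given beside the results they move with.

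Members together held 13947 to 98256 normalized reads per library, which is 0.106 to 0.862% of all reads. The H1 genes took the largest share, 39.2 to 55.3% of member reads. Per kb of gene length, averaged over the libraries, the highest levels were those of Hist1h1c (linker histone H1.2) at 4887, Hist2h2ac at 3005, Hist1h2bn at 2779, Hist1h2ak at 2150.3 and Hist1h4d at 2074 normalized reads per kb. Lower on the same scale were Hist1h1e at 1485, Hist1h4h at 1376.5, Hist1h2bb at 1196, Hist1h3b at 964, Hist1h3e at 541, Hist1h1d at 436, Hist1h3f at 412, Hist1h2be at 261 and Hist4h4 at 193, and the lowest member was Hist2h2aa2 at 13.7. The order per kb depends on the annotated lengths, such as 381 bases for Hist1h2bn, 4446 for Hist1h2be and 7425 for Hist1h1d. Without the division by length, Hist1h2be averaged 1162 normalized reads, Hist1h2bn 1059 and Hist1h1d 3236. Of the 59 members 46 reached 10 normalized reads in all 20 libraries.

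**Figure D1:**
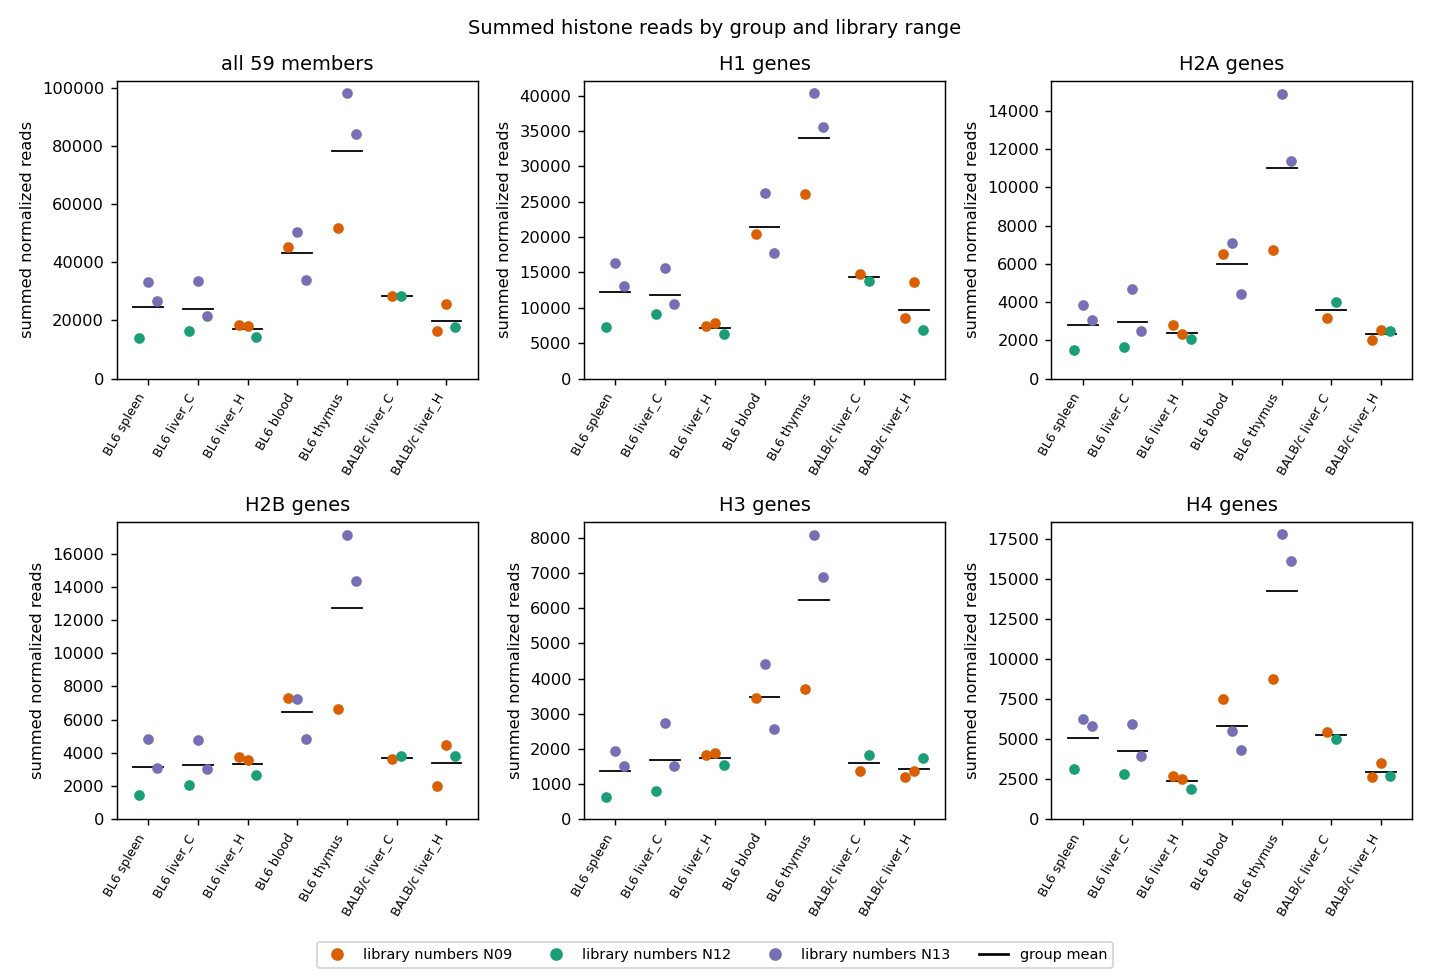
Summed normalized reads of the members of each histone type in each library (points), by group, with the library number range shown by colour and the group mean as a bar. The summed members reach 51980 to 98256 in the thymus libraries and at most 50511 in any other library.

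Summed over the members, thymus libraries held 51980.4, 98256 and 84387 normalized reads, blood 45246, 50511 and 33854, spleen 13947, 33207 and 26539, liver_C 16529, 33679 and 21454 and liver_H 18537, 18108 and 14364. The BALB/c libraries held 28429.7 and 28448 in liver_C and 16433, 25594 and 17658 in liver_H. Thymus and blood lay above the other BL6 groups with a narrow gap between the lowest blood library and the highest spleen or liver_C library, and spleen, liver_C and liver_H overlapped. In these bulk libraries fewer cells in S phase and less histone RNA per cell cannot be told apart.

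Of the 59 members 54 differed among the 7 groups by the limma F test at an adjusted p under 0.05, against 24.7% of all 14170 genes tested. Hist1h2aj, Hist1h2ad, Hist2h2ab, Hist2h2be and Hist2h2aa2 did not pass. The smallest adjusted p values among members were those of Hist1h2al (1.44e-08), the H2A gene Hist2h2ac (4.18e-06) and the H4 genes Hist1h4c (4.44e-06) and Hist1h4d (6.24e-06). Hist1h2al is annotated as an H2A pseudogene and separated the strains, with 145 to 548 normalized reads in BALB/c and at most 16.5 in BL6.

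**Figure D2:**
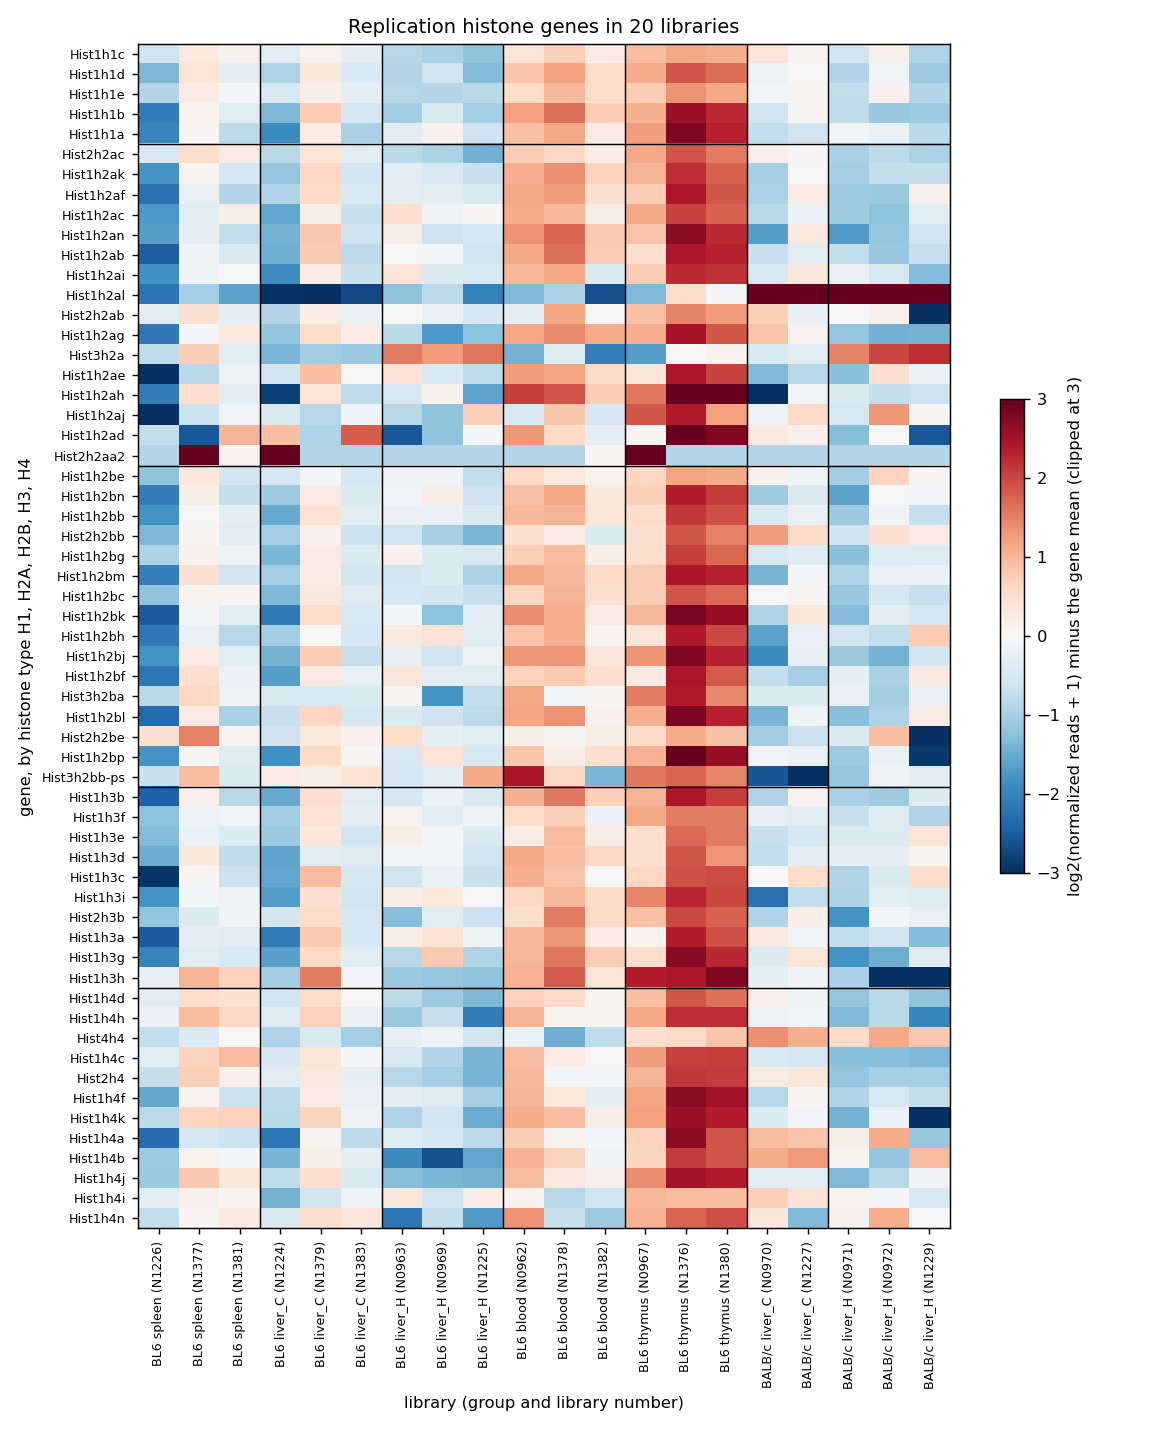
Each member (rows, by histone type) in each library (columns, by group), as the difference of log2(normalized reads + 1) from the member's mean over the 20 libraries, with the colour scale clipped. The thymus columns are above the mean for nearly all rows, and Hist3h2a and Hist1h2al depart from the other H2A rows.

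Thymic cells had more histone RNA than spleen cells for almost every member. At an adjusted p under 0.05 (limma on log2(normalized reads + 1), Benjamini-Hochberg over all genes) 51 of 58 members tested were higher in thymus and 0 lower, against 7.71% of 13604 genes higher and 5.73% lower. The median log2 fold change was 2.12 for the members and -0.01 for all genes. All 5 H1 genes, 12 of 15 H2A, 14 of 16 H2B, all 10 H3 and 10 of 12 H4 genes rose, with medians of 1.96, 2.44, 2.18, 2.29 and 1.71. Not called were Hist1h2ad, Hist3h2a, Hist2h2aa2, Hist3h2bb-ps, Hist2h2be, Hist1h4i and Hist1h4n. The count was 7 of 8 for members with under 10% shared windows, 23 of 26 for those with 10 to 50% and 21 of 24 for those with over 50%.

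Hist1h4f, an H4 gene, had 464, 1340.3 and 1186 normalized reads in the thymus libraries and 69.7, 219.6 and 131 in spleen (log2 fold change 2.83, standard error 0.42, limma adjusted p = 9.28e-05). The linker histone gene Hist1h1a (H1.1) had 1484, 4319 and 3149 in thymus and 157, 640.3 and 358 in spleen (log2 fold change 3.04, standard error 0.48, limma adjusted p = 0.000191). Neither gene overlapped between these groups, and in both the first-named thymus library, N0967, was the lowest of its group. The H2A gene Hist1h2af, with 86.8% shared windows, had 911, 2916 and 1970.1 in thymus and 113, 460.2 and 294 in spleen (log2 fold change 2.80, standard error 0.44, limma adjusted p = 0.000167). For the H3 gene Hist1h3f the values were 995, 1290.0 and 1302 in thymus and 188, 398 and 419 in spleen (log2 fold change 1.91, standard error 0.32, limma adjusted p = 0.000332). Hist1h4h (chr13:23531050-23531519, plus strand) reached 1045, 2189.7 and 2181 in thymus and 416, 894 and 725 in spleen, again without overlap (log2 fold change 1.40, standard error 0.37, limma adjusted p = 0.0155).

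Within the N13 range, 2 libraries against 2, 56 of 58 members were higher in thymus with a median log2 difference of 1.97. The double-positive thymocyte list moved with this comparison. All 8 of its genes, such as Rag1, Cd8a and Ptcra, were called higher in thymus, their summed level was 10849, 24463 and 18030.1 normalized reads in N0967, N1376 and N1380 and 117 to 233 in spleen, and none was at 0 throughout thymus while Rag2 was at 0 in all spleen libraries. The B and plasma cell list moved the other way, with 5 of 7 tested genes lower in thymus and sums of 30.3 to 282 against 515 to 1040.0 in spleen. The part of either in the histone result was not tested.

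Thymus was also above blood in all 58 members by point estimate, with a median log2 fold change of 0.97, and 12 passed the test in that direction and 0 in the other, against 5.05% of genes higher and 5.43% lower. Here 8 of 12 H4 genes rose (median 1.45), with 1 each of H1, H2A, H2B and H3. Hist4h4, an H4 gene on its own on chromosome 6, had 682, 716 and 849.7 normalized reads in thymus and 413, 172 and 282 in blood (log2 fold change 1.45, standard error 0.25, limma adjusted p = 0.000582). Hist1h4c had 925, 1588 and 1616 in thymus and 728, 459 and 385 in blood (log2 fold change 1.40, standard error 0.32, limma adjusted p = 0.00722), and Hist2h4 788, 1670.4 and 1647 in thymus and 766, 371 and 373 in blood (log2 fold change 1.45, standard error 0.34, limma adjusted p = 0.00801). In all of these the groups did not overlap. Hist1h4f (log2 fold change 1.81, standard error 0.42, limma adjusted p = 0.00781) and Hist1h4h (log2 fold change 1.49, standard error 0.37, limma adjusted p = 0.0138) were called too, as were Hist1h4d, Hist1h4i, Hist1h4j, Hist1h1c, Hist2h2ac, Hist2h2bb and Hist1h3f.

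This count rested on few libraries, falling from 12 to 1 without blood N1382, to 5 without thymus N1376 and to 3 without thymus N1380, and it was 6 without the filter on low values, 19 with pseudocount 10 and 23 with the library range in the model. Within the N13 range 57 of 58 members were higher in thymus (median 1.45), but between the single N09 libraries of each group 30 of 58 were, with a median of 0.02. Both N13 blood libraries came from 10700 sorted cells, fewer than either N13 thymus library, whereas the N09 blood library came from more cells than the N09 thymus library. The part of the cell number was not tested. Double-positive thymocyte genes were called higher in thymus than in blood for 7 of 8, with blood sums of 250.4 to 2715 and no gene at 0 throughout blood. In erythroid genes 4 of 5 tested were lower in thymus, with sums of 1.26 to 44.1 against 156 to 1572. Macrophage genes were called for 0 of 4 tested by limma, with 4 at an unadjusted p under 0.05 and sums of 50.5 to 162 in thymus against 0 to 32.9 in blood. Of B and plasma cell genes 1 of 7 and of hepatocyte genes 1 of 2 were higher in thymus. Their part was not tested.

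Some H1, H2A, H2B and H3 genes were higher in blood than in spleen, and no H4 gene was called. Both this comparison and that of thymus with spleen use the same 3 spleen libraries. Of 58 members 13 were called higher in blood and 0 lower, against 2.96% of genes higher and 1.26% lower, and the median log2 fold change was 1.24 for members and -0.02 for all genes. The called genes were 3 of 5 H1, 5 of 15 H2A, 2 of 16 H2B, 3 of 10 H3 and 0 of 12 H4, with medians of 1.27, 1.37, 1.24, 1.49 and 0.24. Whether H4 differed from the other types in this fold change was not tested. Hist1h2af had 1216, 1287 and 738 normalized reads in blood and 113, 460.2 and 294 in spleen (log2 fold change 2.07, standard error 0.44, limma adjusted p = 0.00893), and Hist1h2an 460.5, 608 and 313 in blood and 57.4, 148 and 108 in spleen (log2 fold change 2.18, standard error 0.48, limma adjusted p = 0.013). Blood lay above spleen in every library for both genes, which had 86.8% and 84.6% shared windows.

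Linker histones bind where DNA enters and leaves the nucleosome, and 3 of their genes were called higher in blood. Hist1h1b (H1.5) had 1986, 2661 and 1405 normalized reads in blood and 198, 899 and 651 in spleen (log2 fold change 2.0, standard error 0.49, limma adjusted p = 0.0258). Hist1h1d (H1.3) had 4592, 5991 and 3752 in blood and 1007, 3431 and 2148 in spleen (log2 fold change 1.27, standard error 0.34, limma adjusted p = 0.0426), and Hist1h1e (H1.4) 3689.8, 4967 and 3691 in blood and 1387, 3018 and 2426 in spleen (log2 fold change 0.91, standard error 0.22, limma adjusted p = 0.0234). All blood libraries were above all spleen libraries in each of the 3. Hist1h1a and Hist1h1c were not called, with 9051, 11239 and 8158 in blood and 4479, 8368 and 7483 in spleen for Hist1h1c (log2 fold change 0.52, standard error 0.19, limma adjusted p = 0.14).

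Hist1h2ak and Hist1h2bn are transcribed away from each other from a shared promoter on chromosome 13. Hist1h2ak had 1357, 1651 and 1031 in blood and 187, 676 and 446 in spleen (log2 fold change 1.78, standard error 0.41, limma adjusted p = 0.0151). Its partner Hist1h2bn had 1454, 1741 and 983 in blood and 186, 881 and 476 in spleen (log2 fold change 1.66, standard error 0.46, limma adjusted p = 0.0442). Both members of the pair were higher in blood without overlap. Hist1h2bn had 72.3% shared windows and Hist1h2ak 32.0%, so the values of Hist1h2bn on its own are uncertain. For the H3 gene Hist1h3b, with 58.6% shared windows, the values were 888, 1254 and 693 in blood and 77.9, 465 and 234 in spleen (log2 fold change 2.16, standard error 0.50, limma adjusted p = 0.0172). Hist1h4h, in contrast, had 949, 493 and 485 in blood and 416, 894 and 725 in spleen, which overlap (log2 fold change -0.08, standard error 0.37, limma adjusted p = 0.936).

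Members called in blood fell from 13 to 1 without spleen N1226 or without blood N1378, to 3 without blood N0962 and to 7 without blood N1382. The count was 4 without the filter on low values, 6 with all 20 libraries in one fit, 7 with edgeR and 27 with the library range in the model. Within the N13 range 44 of 58 members were higher in blood, with a median of 0.62, and the H4 median was -0.41. Both N13 blood libraries came from 10700 sorted cells, fewer than either N13 spleen library, so organ and cell number go together there. Blood N0962 came from a cell number within the range of the spleen libraries. The part of the cell number was not tested. Erythroid sums were 249, 1572 and 156 in blood and 151, 86.4 and 62 in spleen with 0 of 5 tested genes called by limma and 4 at an unadjusted p under 0.05, and B and plasma cell genes were lower in blood for 2 of 7 tested, with sums of 54.7 to 273 against 515 to 1040.0. Double-positive thymocyte sums were 2715, 989 and 250.4 in blood and 117, 233 and 186 in spleen, without overlap, with 0 of 8 tested genes called by limma, 5 at an unadjusted p under 0.05 and a median log2 fold change of 2.114. Macrophage sums were 0 to 32.9 in blood and 35.4 to 163 in spleen, with 0 of 4 tested genes called by limma and 3 at an unadjusted p under 0.05. The part of these lists was not tested.

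**Figure D3:**
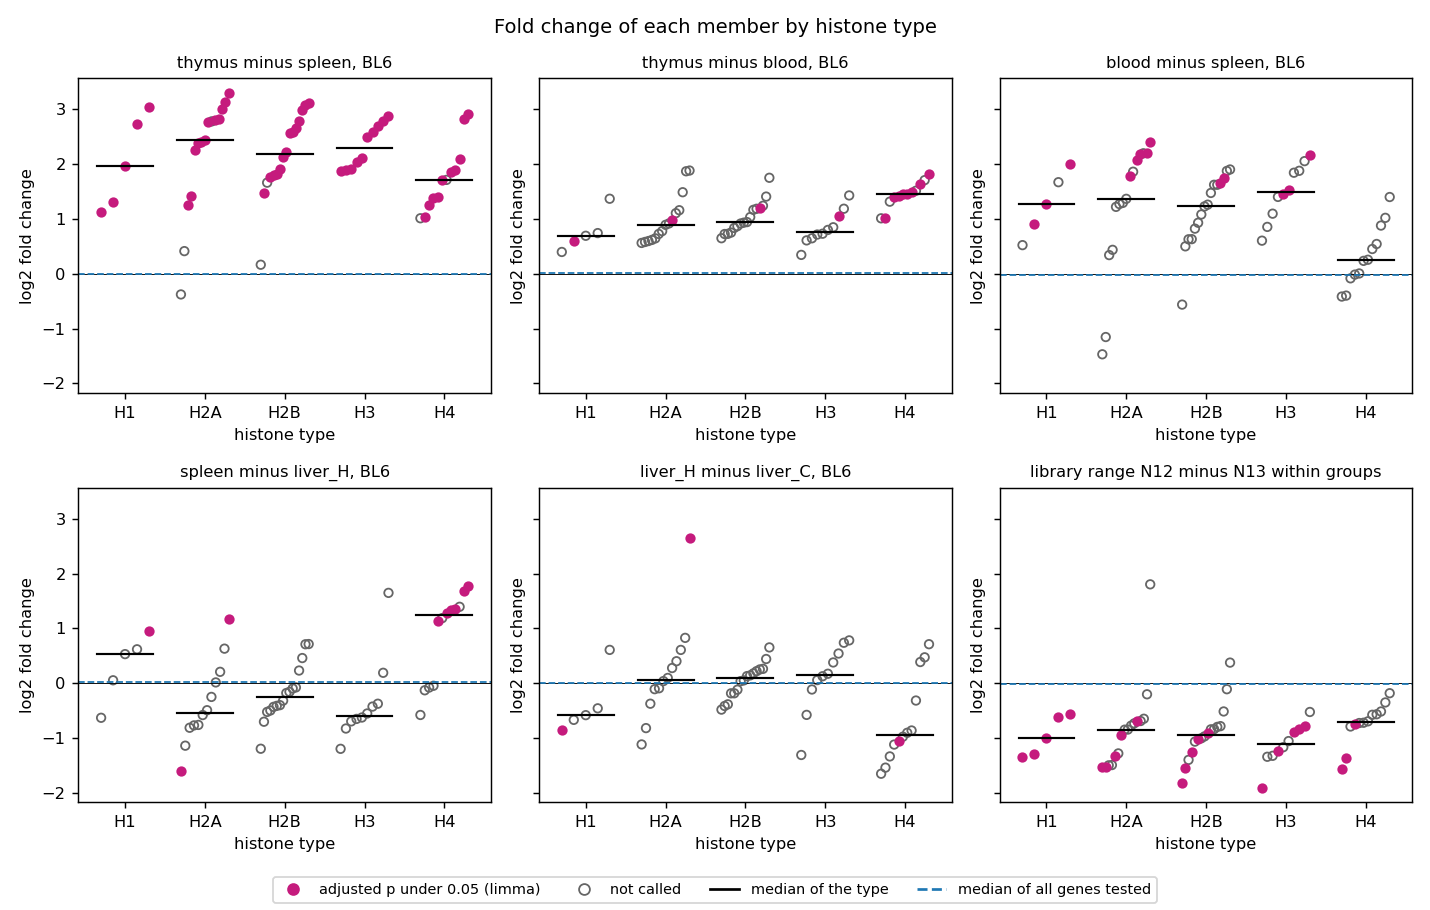
Log2 fold change of each member (points) by histone type in each comparison, with filled points for members called at an adjusted p under 0.05, a bar at the median of each type and a dashed line at the median of all genes tested. H4 lies above the other types in spleen minus liver_H (median 1.24) and below them in blood minus spleen (median 0.24).

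Among the members, mainly H4 genes were higher in spleen than in digested liver, while the medians of H2A, H2B and H3 genes lay below 0. Of 55 members 8 were called higher in spleen and 1 lower, against 6.76% of 12802 genes higher and 9.33% lower, and the median was -0.16 for members and 0.02 for all genes. By type, 6 of 12 H4 genes were higher in spleen (median 1.24), with 1 of 5 H1 genes, Hist1h1c (median 0.53), and 1 of 12 H2A genes, Hist2h2ac (median -0.54). No H2B (median -0.25) or H3 gene (median -0.59) was called, and the 1 gene lower in spleen was the H2A gene Hist3h2a. H4 genes accounted for 18.9 to 22.3% of member reads in spleen, 17.2 to 18.3% in liver_C, 12.9 to 14.6% in liver_H, 10.9 to 16.6% in blood and 16.8 to 19.1% in thymus.

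Hist1h4h had 416, 894 and 725 normalized reads in spleen, 357, 749.7 and 406 in liver_C and 216, 287 and 108 in liver_H. Every liver_H library lay below every spleen and liver_C library (log2 fold change 1.77, standard error 0.35, limma adjusted p = 0.0037 for spleen minus liver_H). Hist1h4d, the H4 gene with the most reads, had 1529, 2788 and 2653 in spleen, 1266, 2835 and 1951 in liver_C and 1119, 911 and 760.0 in liver_H (log2 fold change 1.29, standard error 0.26, limma adjusted p = 0.00445). Hist1h4c had 297, 611 and 734 in spleen, 270.1, 495 and 375 in liver_C and 274, 209 and 145 in liver_H (log2 fold change 1.33, standard error 0.31, limma adjusted p = 0.01), with liver_H N0963 just above liver_C N1224. Hist2h4, Hist1h4b and Hist1h4j were the other H4 genes called. The linker gene Hist1h1c had 4479, 8368 and 7483 in spleen, 5442, 7335 and 5644 in liver_C and 3793, 3472 and 2939.5 in liver_H (log2 fold change 0.95, standard error 0.20, limma adjusted p = 0.0053), again lowest in liver_H.

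The 8 calls fell to 3 without spleen N1377 or N1381 and to 4 without liver_H N1225, and with the library range in the model 5 members were higher and 9 lower. BL6 spleen holds N12 and N13 libraries and BL6 liver_H N09 and N12, so this comparison and the library range are partly mixed. Between the single N12 libraries 14 of 55 members were higher in spleen, with a median log2 difference of -0.93. The H4 median there was 0.58, while the H2A, H2B and H3 medians were -1.26, -1.34 and -1.09. The B and plasma cell list moved with this comparison, with 5 of 7 tested genes higher in spleen and sums of 515 to 1040.0 against 30.1 to 118 in liver_H, where Mzb1 was at 0 throughout. Neutrophil genes were higher in spleen for 3 of 3 tested (sums 87.7 to 191 against 0 to 6.29, with Ngp, Camp, Ltf, Mpo and Elane at 0 throughout liver_H). Hepatocyte genes were lower for 2 of 2 tested (sums 1.23 to 13.8 against 50.9 to 156). The 1 macrophage gene tested was higher in spleen (sums of the list 35.4 to 163 against 7.52 to 21.5), and 1 of 5 erythroid genes was lower (sums 62.0 to 151 against 137 to 906, which overlap). Their part was not tested.

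Digestion was set against cold preparation within each strain. In BL6 1 of 55 members was higher in liver_H than in liver_C and 2 were lower, against 1.63% of genes higher and 0.766% lower. In BALB/c 1 of 57 was higher and 1 lower, against 0.258% and 0.0151% of 13202 genes. H4 medians were -0.94 in BL6 and -0.82 in BALB/c and H1 medians -0.58 and -0.61, whereas H2A, H2B and H3 medians were 0.07, 0.09 and 0.15 in BL6 and -0.36, -0.10 and -0.40 in BALB/c. Hist1h4h had 423 and 444 normalized reads in BALB/c liver_C and 187, 264 and 120.1 in BALB/c liver_H, which do not overlap, yet it passed in neither strain (log2 fold change -1.34, limma adjusted p = 0.057 in BL6 and -1.26, limma adjusted p = 0.4 in BALB/c).

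Called lower in BL6 liver_H were Hist1h1c (log2 fold change -0.85, standard error 0.20, limma adjusted p = 0.0365) and Hist1h4d (log2 fold change -1.06, standard error 0.26, limma adjusted p = 0.0454). This count was 5 without liver_C N1224, 1 without liver_H N0969 and 0 without any one of the other libraries of the 2 groups, without the filter on low values or with all 20 libraries in one fit. Called lower in BALB/c was Hist2h4, with 448 and 485 in liver_C and 171, 193 and 189.8 in liver_H (log2 fold change -1.33, standard error 0.23, limma adjusted p = 0.0356), and leaving out any library of these groups, dropping the filter or fitting all 20 libraries together ended that call. The strain difference of the digestion effect was called for 0 of 57 members by limma, with 4 at an unadjusted p under 0.05 and 0 by edgeR, against 0% of genes in either direction. BL6 liver_C holds N12 and N13 libraries and BL6 liver_H N09 and N12, so digestion and library range are partly mixed in BL6. Within the N12 range the H4 median was -0.67 in BL6 and -0.86 in BALB/c, and within N09 it was -0.72 in BALB/c. Between the single N12 libraries of BL6 34 of 55 members were higher in liver_H, with H2A, H2B and H3 medians of 0.71, 0.67 and 0.89. In BALB/c the H2A, H2B and H3 medians were -0.63, -0.07 and -0.48 within N12 and -0.004, 0.09 and -0.21 within N09. Double-positive thymocyte genes were higher in BL6 liver_H for 2 of 6 tested, with sums of 590.1, 798 and 79.7 in liver_H and 40.16, 62.0 and 30.7 in liver_C, where Rag2 and Ptcra were at 0. Hepatocyte sums (50.9 to 156 against 20.7 to 35.8) and B and plasma cell sums (30.1 to 118 against 7.67 to 26.9) were also higher in BL6 liver_H without overlap, with 0 genes of either list called by limma and 1 and 3 at an unadjusted p under 0.05.

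In BALB/c the marker lists differed among the liver_H libraries themselves. N0971 had erythroid, double-positive thymocyte and neutrophil sums of 2264, 2305 and 236 normalized reads, against 123, 67.9 and 9.48 in N0972 and 92.2, 11.8 and 0 in N1229. N0972 had a hepatocyte sum of 1284, against 194 in N0971 and 19.3 in N1229, and B and plasma cell sums were 464, 471 and 46.1 in N0971, N0972 and N1229. In the BALB/c liver_C libraries N0970 and N1227 these sums reached at most 429, the double-positive thymocyte sum of N0970. No gene of these lists was called in the BALB/c comparison by limma, with 1 B and plasma cell gene at an unadjusted p under 0.05, and the neutrophil genes did not pass the filter. The part of these lists in the digestion results was not tested.

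Hist3h2a was called higher in liver_H in both strains. It codes for an H2A on chromosome 11 (chr11:58954685-58956830, plus strand), away from the large clusters, and had 133, 111 and 141 normalized reads in BL6 liver_H and 129, 185 and 213 in BALB/c liver_H. In the cold livers it had 17.1, 21.7 and 20.4 in BL6 and 32.8 and 35.1 in BALB/c. The 6 liver_H libraries, at 111 to 213, lay above the other 14, at 10.3 to 76.5. For liver_H minus liver_C the test gave log2 fold change 2.64, standard error 0.37, limma adjusted p = 0.00113 in BL6 and log2 fold change 2.31, standard error 0.33, limma adjusted p = 0.00747 in BALB/c. The BALB/c call was lost without liver_H N0972 and with all 20 libraries in one fit. In spleen it had 26.2, 76.5 and 35.4 (log2 fold change -1.60, standard error 0.37, limma adjusted p = 0.0103 for spleen minus liver_H), and it had 16.3, 34.6 and 10.3 in blood and 13.9, 45.7 and 49.3 in thymus. Trim17 overlaps 33.0% of Hist3h2a on the same strand and had a median of 0 and at most 4.57 normalized reads.

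**Figure D4:**
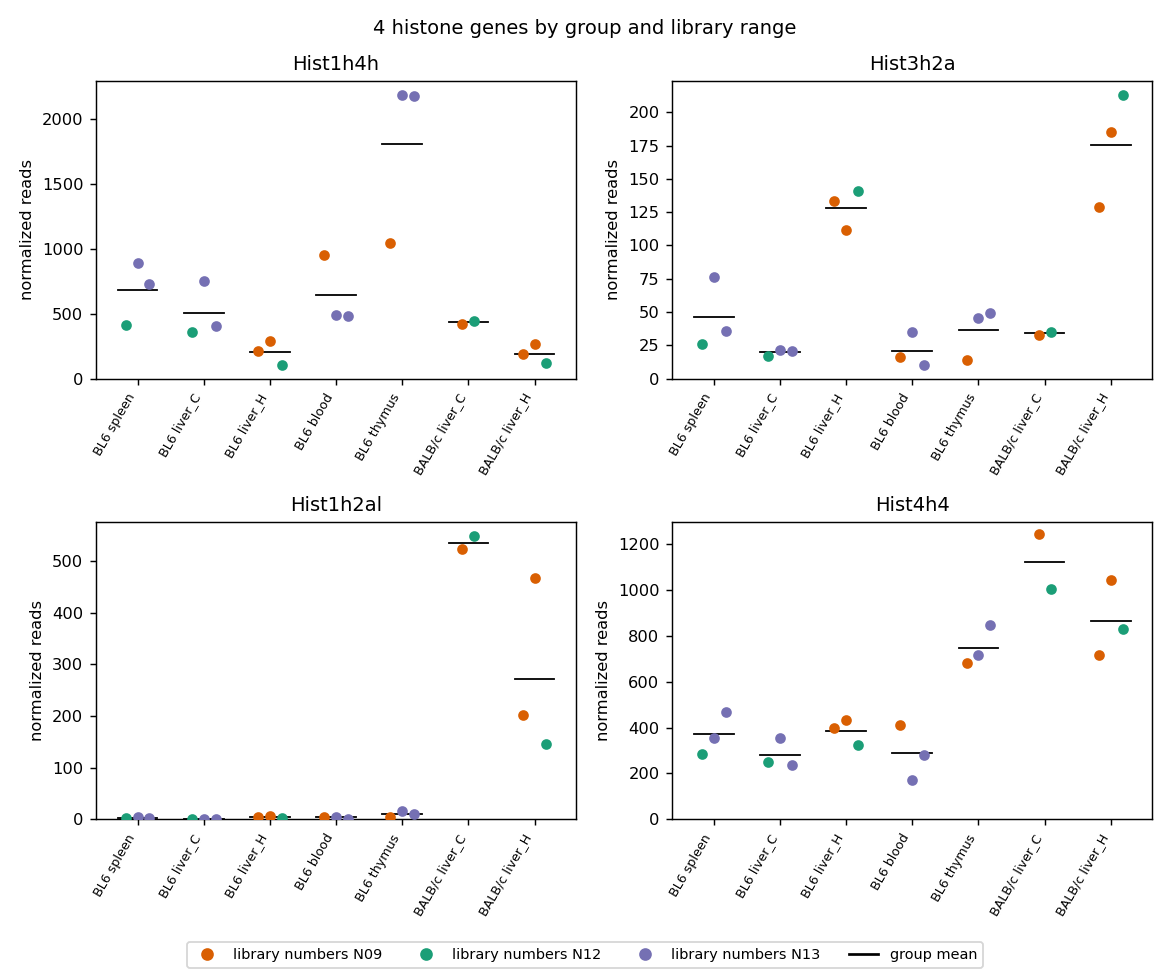
Normalized reads of Hist1h4h, Hist3h2a, Hist4h4 and Hist1h2al in each library (points, coloured by library number range) by group, with a bar at the group mean. Hist3h2a is highest in the 6 liver_H libraries (111 to 213), and Hist1h2al is at 145 to 548 in BALB/c and at most 16.5 in BL6.

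Few members were called between the strains. In liver_C 2 of 57 members were called higher in BALB/c and 1 lower, against 1.17% of genes higher and 1.41% lower. In liver_H 2 were called higher and 0 lower, against 1.8% and 1.91%. Between the single N12 libraries of liver_C, however, 52 of 57 members were higher in BALB/c (median log2 difference 0.98). In liver_H 32 of 57 were higher between the single N12 libraries (median 0.15) and 17 of 57 within N09 (median -0.21). BL6 liver_C holds N12 and N13 libraries and BALB/c liver_C N09 and N12, so strain and library range are partly mixed there. Hist1h2al (chr13:51202727-51203065, minus strand) is annotated as a processed pseudogene of the H2A family and lies outside the main cluster. It had 523 and 548 normalized reads in BALB/c liver_C and 201, 466 and 145 in BALB/c liver_H, against 0.55, 0 and 0.85 in BL6 liver_C and 4.19, 6.01 and 1.96 in BL6 liver_H. In liver_C the 3 BL6 libraries held 2 reads in all, and the ratio was 1074 with an exact 95% counting interval of 297 to 8873. The gene was called in liver_C (limma adjusted p = 1.46e-06) and in liver_H (log2 fold change 5.65, standard error 0.55, limma adjusted p = 2.47e-05). It passed the filter of these fits only through its BALB/c libraries, since no BL6 liver library exceeded 6.01. Its transcript shared 45.7% of windows with other genes, first among them Hist2h2aa2 and Hist2h2aa1. Hist2h2aa1 was at 0 in every library and Hist2h2aa2 in every BALB/c library, but both had 100% shared windows, so these values of 0 are uncertain. Reads of both strains were aligned to the same GRCm38.p6 reference. Its part in the strain differences of single genes, such as Hist1h2al, Hist4h4 and Hist3h2bb-ps, was not tested.

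Hist4h4 (chr6:136801553-136804415, minus strand) had 1245 and 1003 normalized reads in BALB/c liver_C and 719, 1043 and 832 in BALB/c liver_H, against 252, 355 and 236 in BL6 liver_C and 399, 435 and 326 in BL6 liver_H. The strains did not overlap in either preparation (log2 fold change 2.01, standard error 0.23, limma adjusted p = 0.000121 in liver_C and log2 fold change 1.15, standard error 0.20, limma adjusted p = 0.00412 in liver_H). In BL6 liver_H minus liver_C its estimate was above 0, at 0.47 on the log2 scale and not called, as were those of Hist1h4a and Hist1h4i, while the other H4 genes were below 0. Hist3h2bb-ps, an H2B pseudogene, was called lower in BALB/c liver_C with 1 read in each of the 2 libraries (log2 fold change -3.23, standard error 0.76, limma adjusted p = 0.0385). Its BL6 to BALB/c ratio was 24.2 with an exact 95% counting interval of 6.45 to 204, and the call was lost without any one of the libraries of these 2 groups.

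Spleen and liver_C differed in no called member, with 0 of 55 members called by limma, 2 at an unadjusted p under 0.05 and 0 by edgeR, against 0.914% of genes higher and 1.63% lower. The member median was -0.09, with a range of -1.51 to 1.04. A missed threshold does not show that the groups are equal, since library sums ran from 13947 to 33207 in spleen and from 16529 to 33679 in liver_C.

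Histone levels also moved with the library number. With the group in the model, 23 of 59 members were lower in N12 than in N13 libraries and 0 higher (median -0.85), against 3.27% of 14170 genes higher and 1.9% lower. The 23 were 5 of 5 H1, 5 of 16 H2A, 5 of 16 H2B, 5 of 10 H3 and 3 of 12 H4 genes. Smallest in adjusted p were Hist1h3a (log2 fold change -1.91, standard error 0.34, limma adjusted p = 0.0065), Hist1h2bc (log2 fold change -1.02, standard error 0.20, limma adjusted p = 0.0107), Hist1h1a (log2 fold change -1.34, standard error 0.27, limma adjusted p = 0.011) and Hist1h2ag (log2 fold change -1.53, standard error 0.31, limma adjusted p = 0.0112). Hist1h3a, an H3 gene, had 13.9 normalized reads in spleen N1226 and 67.9 and 66.9 in the other spleen libraries, and 18.7 in liver_C N1224 beside 144 and 57.1. The N12 libraries stood below the N13 libraries of the same organ in both cases. Only BL6 spleen and BL6 liver_C hold both N12 and N13 libraries, each with 1 from N12.

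The N12 count was 6 without the filter on low values, 0 without liver_C N1224, 1 without spleen N1226, 11 without liver_C N1379, 13 without spleen N1377 or thymus N0967, 15 without spleen N1381 or blood N1378 and 37 without blood N0962. Between N09 and N13 0 of 59 members were called by limma and 0 by edgeR, with 32 at an unadjusted p under 0.05 (median -0.77), against 0.0282% of genes higher and 0.0212% lower. That count became 23 lower without blood N0962 and 4 without blood N1382. By value 58 of 59 members were lower in N1226 than in the mean of the other spleen libraries, 54 of 59 in N1224 than in the other liver_C libraries and 56 of 59 in N0967 than in the other thymus libraries, whereas in blood N0962 was lower in 16 of 59. In groups holding N09 and N12 libraries the member median of N09 minus N12 was 0.32 in BL6 liver_H, -0.15 in BALB/c liver_C and -0.06 in BALB/c liver_H. What the library number stands for is not given, so the range and anything that goes with it cannot be told apart.

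Genes of the cell cycle around the histones were read as lists. Of 27 S phase replication genes 16 were higher in blood than in spleen (median 0.83) and 19 in thymus than in spleen (median 0.98), with 0 lower in either. Cdc6, which loads the replicative helicase, rose in blood (log2 fold change 2.04, standard error 0.38, limma adjusted p = 0.00434) and in thymus (log2 fold change 2.54, standard error 0.38, limma adjusted p = 0.000118). Of 18 mitosis genes 17 were higher in blood (median 2.37) and 15 in thymus (median 2.12), such as Top2a, which untangles DNA (log2 fold change 2.32, standard error 0.37, limma adjusted p = 0.00107 in blood). Between thymus and blood 0 genes of either list were called by limma, with 1 S phase and 0 mitosis genes at an unadjusted p under 0.05 (medians 0.13 and -0.14). Summed mitosis reads were 2223, 10027 and 6095 in thymus, 6173, 6511 and 4555 in blood and 756, 1786 and 1129 in spleen, and N0967 was lowest in thymus there as for the histones.

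In spleen minus liver_H 17 of 27 S phase genes (median -0.68) and 13 of 18 mitosis genes (median -1.61) were lower in spleen and 0 higher, among them the DNA methyltransferase Dnmt1 (log2 fold change -1.34, standard error 0.20, limma adjusted p = 0.000684) and the proliferation marker Mki67 (log2 fold change -2.55, standard error 0.25, limma adjusted p = 1.45e-05). The H4 genes that were higher in spleen went against the sign of these lists. In liver_H minus liver_C 0 of 27 S phase genes were called in BL6 by limma, with 9 at an unadjusted p under 0.05 (median 0.35), and 1 of 18 mitosis genes, Mki67, was higher (log2 fold change 1.23, standard error 0.25, limma adjusted p = 0.0198).

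Few histone mRNA processing genes were called. Of 16 tested, 0 were called by limma in blood minus spleen, with 2 at an unadjusted p under 0.05. In thymus minus spleen 1 was lower, the SLBP-interacting factor Mif4gd (log2 fold change -0.93, standard error 0.16, limma adjusted p = 0.000411), beside 5.73% of all genes. In spleen minus liver_H 1 was lower, the RNA helicase Upf1 (log2 fold change -0.98, standard error 0.20, limma adjusted p = 0.00428), which acts in the decay of these mRNAs, beside 9.33% of all genes. In thymus minus blood 1 was higher and 2 lower, beside 5.05% and 5.43% of all genes, with 6 at an unadjusted p under 0.05. Higher was the cap-binding subunit gene Ncbp1 (log2 fold change 0.38, standard error 0.12, limma adjusted p = 0.0409), and lower were Mif4gd (log2 fold change -0.78, standard error 0.16, limma adjusted p = 0.00281) and the uridylyltransferase gene Tut7 (log2 fold change -0.38, standard error 0.12, limma adjusted p = 0.0486). In N12 minus N13 libraries 3 were higher, Casp8ap2, Sympk and Upf1, and 0 lower, beside 3.27% of all genes higher. Slbp itself was not called in these comparisons (log2 fold change 0.35 in blood minus spleen and -0.34 in spleen minus liver_H). Among 12 histone chaperone genes 2 were higher in blood and 5 in thymus than in spleen, and 5 were lower in spleen than in liver_H. Chaf1a, a subunit of the chromatin assembly factor that places new H3 and H4 behind the replication fork, rose in blood (log2 fold change 2.48, standard error 0.36, limma adjusted p = 0.000488) and was lower in spleen than in liver_H (log2 fold change -1.92, standard error 0.24, limma adjusted p = 0.00014). Of 13 genes of histone transcription and G1/S control 4 rose in blood and 5 in thymus over spleen, led in thymus by E2f2 (log2 fold change 3.06, standard error 0.42, limma adjusted p = 4.04e-05).

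Promoters of 51 members were matched in RefSeq on GRCm38.p6, each from 250 bases before to 50 after the start site. CCAAT, the box bound by NF-Y, was present on either strand in 43 of 51 (84.3%) and in 37.4% of all 32851 promoters. It was found in all 5 H1, 14 H2A, 13 H2B and 8 H3 promoters and in 3 of 11 H4 promoters. TATAAA was in 31 of 51 (60.8%, against 13.6% of all), ATTTGCAT, the octamer read by POU2F1, in 6 H2A and 5 H2B promoters (1.74% of all), and AAACACA, known from H1 promoters, in 6 members, 4 of them H1 (7.18% of all). CNGGTCC, the end of the H4 element bound by HINFP and picked after the H4 sequences were read, was in 7 of 11 H4 promoters and 1 H2A promoter and in 17.96% of all. GAANNTTC, an inner part of the heat shock element, was in 9 of 51 and in 7.86% of all, and not in Hist3h2a. A match is a string of letters and was not tested for binding.

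The 150 bases before the start site are shown for 5 members whose values set them apart above, with capitals for matches to these motifs on either strand (ATTGG is CCAAT and ATGCAAAT is ATTTGCAT read on the other strand).
Hist1h4h: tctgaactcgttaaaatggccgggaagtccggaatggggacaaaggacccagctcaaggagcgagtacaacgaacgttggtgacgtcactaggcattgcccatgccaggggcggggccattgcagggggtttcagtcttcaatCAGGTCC
Hist1h4d: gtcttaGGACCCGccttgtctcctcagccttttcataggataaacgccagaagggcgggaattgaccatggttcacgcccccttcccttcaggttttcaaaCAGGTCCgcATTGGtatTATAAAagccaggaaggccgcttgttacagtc
Hist3h2a: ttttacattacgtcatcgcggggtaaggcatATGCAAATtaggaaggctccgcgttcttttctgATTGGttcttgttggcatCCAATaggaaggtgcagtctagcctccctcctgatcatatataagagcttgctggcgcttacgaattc
Hist1h1c: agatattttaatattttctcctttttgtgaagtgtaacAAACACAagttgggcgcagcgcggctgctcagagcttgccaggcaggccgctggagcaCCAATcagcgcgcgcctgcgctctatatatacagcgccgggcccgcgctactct
Hist1h2ak: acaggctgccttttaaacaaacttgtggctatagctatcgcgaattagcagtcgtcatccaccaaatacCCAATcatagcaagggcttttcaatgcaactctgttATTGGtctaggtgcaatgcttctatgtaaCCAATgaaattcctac
The positions are chr13:23530894-23531043 on the plus strand for Hist1h4h, chr13:23581418-23581567 plus for Hist1h4d, chr11:58954535-58954684 plus for Hist3h2a, chr13:23738657-23738806 plus for Hist1h1c and chr13:21753913-21754062 minus for Hist1h2ak. Both H4 promoters hold CNGGTCC, and Hist1h4h has neither CCAAT nor TATAAA. Hist3h2a, which was high in the digested livers, holds an octamer and a CCAAT box on each strand, and Hist1h2ak holds 3 CCAAT boxes in the stretch it shares with Hist1h2bn.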

How the data were processed

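According to the study's methods, the authors trimmed 75-base single reads of SMARTer total RNA libraries (Trim Galore 0.4.4), aligned them with STAR to GRCm38.p6, counted them per gene with featureCounts and divided them by DESeq2 size factors; the strand setting was not given. The deposited values are this normalized signal, in which at least 99.979% of values in every library returned to whole reads within 0.05; 1 line without a gene was left out, and the column of the deposited base mean was not printed. The authors' own columns of fold change, standard error and p-value (thymus against all other libraries) were not used. No columns belonged to other samples.

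The members, lists and tests were chosen with earlier results of these data known. Values were tested as log2(normalized reads + 1) with limma 3.58.1 (trend, R 4.3.3) on genes that reached 10 normalized reads in 3 or more of the fitted libraries, and called at a Benjamini-Hochberg adjusted p under 0.05 over all genes tested. Fold changes on this scale understate those of low genes. The fits used the 9 BL6 spleen and liver libraries, the 11 liver libraries, the 15 BL6 libraries, or all 20 (F test and library ranges, with group in the model). Comparisons share groups. The script was tested on simulated data. Genes with values were Hist1h4h, the 3 members of each type with most reads, up to 4 called members per comparison and direction, those at the filter, and up to 3 genes per list; other genes or comparisons named, such as Hist1h1b in blood, were chosen after their values were seen. Alternatives were edgeR 4.0.16 quasi-likelihood on the recovered reads, TMM scaling, pseudocount 10, no filter, one fit of all 20 libraries, a term for the library range, and leaving out each library. Stem-loops came from GENCODE M21 transcripts and promoters from RefSeq. Counting intervals cover counting error only.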

Additional observations from a re-analysis of the deposited data

How the results depend on the processing

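No paired analysis was possible because no number in the labels is shared by libraries of different groups and, although livers were split between liver_H and liver_C, which libraries share livers was not given. Counts of called members that moved are given here; the cause was not tested unless stated. With the library range as a term, counts became 5 higher and 9 lower in spleen minus liver_H, 1 lower in spleen minus liver_C, 2 higher and 1 lower in BL6 liver_H minus liver_C, 3 lower in the BALB/c pair, 4 higher and 0 lower in BALB/c minus BL6 liver_C, 1 lower in BALB/c minus BL6 liver_H, 27 higher in blood minus spleen and 23 higher in thymus minus blood. Without the filter on low values, which adds genes to the adjustment, counts were 0 lower in both liver_H minus liver_C comparisons, 0 lower in BALB/c minus BL6 liver_C, 4 higher in blood minus spleen, 6 higher in thymus minus blood and 6 lower in N12 minus N13. With all 20 libraries in one fit they were 0 lower in both liver_H minus liver_C comparisons, 0 higher in that of BALB/c and 6 higher in blood minus spleen. With pseudocount 10 they were 0 lower in BALB/c minus BL6 liver_C and 19 higher in thymus minus blood, and with edgeR 0 lower in the former and 7 higher in blood minus spleen. TMM scaling moved no count by over 1.5 times.

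Leaving out 1 library gave 3 to 11 higher and 1 to 2 lower in spleen minus liver_H (1 main lower call, 2 without N1377), 0 to 5 lower in BL6 liver_H minus liver_C, 0 to 1 higher and 0 to 0 lower in BALB/c, 0 to 0 lower in BALB/c minus BL6 liver_C, 1 to 17 higher in blood minus spleen, 45 to 52 in thymus minus spleen, 1 to 17 in thymus minus blood, 0 to 23 lower in N09 minus N13 and 0 to 37 lower in N12 minus N13. Across 31 pairs of a named gene and a comparison, 359 of 415 alternative values kept direction and call, 56 lost the call and 0 changed direction, and 43 of the 56 came from leaving out 1 library. With 2 or 3 libraries a group, differences smaller than the spread between libraries were not detectable.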

Other observations

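Histone variant genes outside the replication clusters were read as a list of their own. Of 9 tested 3 were higher in thymus than in spleen and 1 lower, led by H2afx, whose product is phosphorylated at DNA breaks (log2 fold change 1.74, standard error 0.27, limma adjusted p = 0.000159), and H2afz (log2 fold change 1.07, standard error 0.23, limma adjusted p = 0.00322). The centromeric H3 gene Cenpa was lower in spleen than in liver_H (log2 fold change -1.38, standard error 0.21, limma adjusted p = 0.000774) and higher in BL6 liver_H than in liver_C (log2 fold change 0.86, standard error 0.21, limma adjusted p = 0.0463), opposite in sign to the H4 medians there.

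Of 10 other RNAs without a poly(A) tail that were tested, 0 were higher and 1 lower in blood than in spleen, namely Rn7sk, the scaffold RNA that holds P-TEFb (log2 fold change -1.72, standard error 0.32, limma adjusted p = 0.00422), and 2 were higher in thymus than in blood, Rn7sk (log2 fold change 1.77, standard error 0.32, limma adjusted p = 0.00102) and Terc, the telomerase RNA (log2 fold change 1.85, standard error 0.41, limma adjusted p = 0.00543). In spleen minus liver_H 2 were higher, Rny3 (log2 fold change 1.58, standard error 0.33, limma adjusted p = 0.00593) and Rn7sk (log2 fold change 0.77, standard error 0.22, limma adjusted p = 0.0278), in the same direction as the H4 members. Summed reads of the list were 119681, 122738 and 156189 in spleen, 73479.5, 25048 and 35660.0 in blood and 168780.0, 92633 and 163406 in thymus.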
